A study of Homo sapiens with 24 samples.

Results

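The early first cycle of synchronized K562 cells was compared with its middle. K562 is an established line of human leukaemia cells that express erythroid genes. The early window held the libraries taken 0, 2 and 4 h after elutriation and the middle window those taken at 10, 12 and 14 h, so 6 of the 24 libraries of the series entered the comparison, chosen by their labelled hour. Synchronous cells had been collected by centrifugal elutriation, which sorts living cells by size, and RNA was sequenced every 2 h from 0 to 46 h with 1 library an hour. Cells of every library were grown in RPMI with 10% bovine calf serum and P/S, and carried no other labelled treatment or genotype. Differences are middle minus early on log2(FPKM + 1), where FPKM is the fragment count of a gene scaled by transcript length and library size. The added 1 understates the change of genes with low FPKM.

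Cells that pass from G1 into S phase switch on the genes that E2F factors control, which encode cyclin E, the helicase loaded at replication origins and the enzymes of the fork. Histone messages accumulate while DNA is copied and are degraded when copying ends. Genes for mitosis are transcribed later, in G2 and M, many through a promoter element called CHR (cell cycle genes homology region) that DREAM and MuvB complexes bind. Immediate early genes lie outside the cycle proper and are transcribed within minutes of a stimulus.

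The 3 hours of a window are not replicates: their spread also holds change with time, and no hour was sampled more than once, so each p-value measures a difference against the spread among these 6 libraries. The sum of FPKM over the table ranged from 473936 to 487514 in the early and from 490795 to 501447 in the middle libraries, and the median gene lay between 12.98 and 13.3 FPKM in the early and at 13.2 FPKM in all middle libraries. The number of reads behind the values is unknown. In bulk RNA such as this, fewer cells in a phase and less RNA per cell cannot be told apart. The erythroid identity of the line was visible in all 6 libraries, with HBG2 between 2646 and 3141 FPKM, whereas 3 of 12 fibroblast markers and 2 of 12 lymphoid markers had an entry in the table at all.

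Of 12081 genes tested, 671 (5.55%) differed between the windows at an adjusted p of 0.05 or less (limma, Benjamini-Hochberg). These called genes were 450 higher in the middle window, which is 3.72% of the genes tested, and 221 lower, which is 1.83%. The changes were moderate. The median size was 0.39 for the genes that rose and 0.51 for those that fell, 81 rose and 92 fell by at least 1.5-fold, and 9 rose and 17 fell by at least 2-fold. In all 671 genes every middle library lay on the same side of every early library, an arrangement also seen in 17.9% of all genes with the middle above and in 14.3% with the middle below. The median difference over all genes tested was 0.01.

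The number of calls rested on few libraries. It was 1560 without 0 h and 1490 without 4 h, but 0 without 2 h, 0 without 10 h, 2 without 12 h and 2 without 14 h (limma), with between 2022 and 3826 genes at an unadjusted p under 0.05 in those fits and 3087 with all 6 libraries. The split by direction followed the scaling. Calls were 67.1% higher as deposited, 42.4% (212 higher and 288 lower) after upper-quartile scaling and 50.9% (207 higher and 200 lower) after quantile normalization. No list of genes described below had a called member without 2, 10, 12 or 14 h (limma), and without the variance trend 1 spindle gene and 1 hypoxia gene were the called members of all lists. The direction of each of the 70 genes selected by rule was the same in every alternative run for it. There were 16 alternatives for 64 genes and 15 for the 6 that a filter at 10 FPKM removed. That outcome was partly fixed in advance. The windows of the 66 called among them did not overlap, so leaving out a library could not turn their sign. Filters, the variance trend and the hour covariate do not alter a difference.

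Both markers of G1/S were highest in the early window. CCNE2, the cyclin E2 that activates CDK2 at the start of S phase, stood at 21.05, 38.9 and 33.8 FPKM at 0, 2 and 4 h and at 18.1, 15.7 and 13.5 FPKM at 10, 12 and 14 h. Its peak over the whole series was at 2 h, and its 0 h value lay closer to the middle window than to 2 h. The fall was 0.91 ± 0.21 (SE, n = 3 hours a window), with an adjusted p of 0.0497 (limma), which 14 of the 16 alternatives moved past the threshold. MCM5, a subunit of the replicative helicase, read 89.6, 112 and 120.1 FPKM in the early and 83.7, 73.5 and 71.8 FPKM in the middle window. The MCM5 windows did not overlap, and the difference of −0.48 ± 0.11 narrowly missed the threshold (adjusted p = 0.0511, limma).

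The promoters of 4 genes that changed are shown, with short sequence words marked that E2F factors, MuvB complexes and heat shock factors are known to read. Each gene is the called member with the largest difference in its list, with genes on 1 chromosome left out. The choice did not depend on the words, and CCNE2, which fell more than E2F1, is not shown. Each window runs from 250 bases before the annotated start to 20 bases after it (RefSeq, GRCh38.p14), 5′ to 3′ on the gene's strand. Capitals mark a match, on either strand, to an E2F word (TTTCCCGC, TTTGGCGC, TTTCGCGC or TTTGCCGC) in CDC6 and E2F1, to a CHR word (TTTGAA or TTCGAA) in CDCA3 and to a heat shock word (GAANNTTC or TTCNNGAA) in HSPA1A.
CDC6, chr17:40287629-40287898, plus strand: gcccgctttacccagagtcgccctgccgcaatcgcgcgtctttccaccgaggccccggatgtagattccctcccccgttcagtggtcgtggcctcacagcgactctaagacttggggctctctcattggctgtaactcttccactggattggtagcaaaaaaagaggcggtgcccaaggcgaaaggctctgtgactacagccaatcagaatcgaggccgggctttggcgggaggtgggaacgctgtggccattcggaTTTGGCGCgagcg
E2F1, chr20:33686366-33686635, minus strand: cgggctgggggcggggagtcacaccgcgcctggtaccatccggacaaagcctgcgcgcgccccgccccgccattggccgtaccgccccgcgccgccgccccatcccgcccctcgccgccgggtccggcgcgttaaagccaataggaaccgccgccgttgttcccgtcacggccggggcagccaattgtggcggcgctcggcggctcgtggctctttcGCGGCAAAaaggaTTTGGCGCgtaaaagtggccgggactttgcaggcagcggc
CDCA3, chr12:6851267-6851536, minus strand: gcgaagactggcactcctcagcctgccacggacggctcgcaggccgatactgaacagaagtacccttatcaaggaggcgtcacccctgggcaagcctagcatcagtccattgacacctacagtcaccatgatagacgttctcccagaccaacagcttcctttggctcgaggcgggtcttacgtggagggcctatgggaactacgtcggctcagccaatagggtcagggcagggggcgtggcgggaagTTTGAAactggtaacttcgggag
HSPA1A, chr6:31815293-31815562, plus strand: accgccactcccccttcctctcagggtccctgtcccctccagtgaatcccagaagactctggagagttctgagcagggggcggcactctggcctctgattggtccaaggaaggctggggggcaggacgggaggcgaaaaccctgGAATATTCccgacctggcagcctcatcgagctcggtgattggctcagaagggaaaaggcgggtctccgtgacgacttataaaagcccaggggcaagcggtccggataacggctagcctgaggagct
CDC6 and E2F1 fell from the early to the middle window and CDCA3 and HSPA1A rose.

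Among all 8917 tested genes with a promoter window of 250 bases before and 50 after the start, 5.72% held an E2F word, against 3.33% of all 27305 windows in the reference. The share was 55.6% of 18 windows for origin licensing genes, 38.5% of 26 for fork genes, 16.0% of 156 for genes that fell and 3.77% of 371 for genes that rose. A CHR word stood in 10.99% of tested windows and 16.6% of all windows, in 80.8% of 52 windows of spindle genes and in 57.7% of 26 of mitotic regulators, but in 12.1% of the genes that rose as a whole. Heat shock words stood in 9.70% of tested windows, 13.7% of all windows and 33.3% of 21 chaperone windows. The shares varied over the other lists as well. Heat shock words stood in 21.7% of 23 G1/S windows and 0% of 25 histone windows. For CHR words it was 28% of 25 histone and 3.85% of 26 fork windows. E2F words stood in 26.1% of 23 G1/S, 25% of 12 p53 target and 0% of 15 immediate early windows. The words of one factor can overlap those of another, and a match is a description of letters, not a bound site.

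Of 22 genes that license and fire replication origins, 6 fell and none rose, beside 1.83% and 3.72% of all genes tested. Their median difference was −0.20. CDC6, the ATPase that helps load the helicase, read 72.5, 97.7 and 78.3 FPKM early and 52.4, 52.2 and 47.7 FPKM in the middle window. Its highest value was at 2 h, the 3 middle values lay below all early values, and the fall was 0.68 ± 0.11 (adjusted p = 0.026, limma). MCM6, another helicase subunit, fell by 0.64 ± 0.08, from 124, 144 and 138 FPKM to 95.1, 81.8 and 83.0 FPKM. GINS2, part of the active helicase, MCM2, MCM4 and the licensing factor CDT1 also fell, by 0.48, 0.38, 0.34 and 0.32. With 0 h left out, 12 licensing genes were called, with 4 h left out 6, and with 2, 10, 12 or 14 h left out none (limma).

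Of 30 fork genes tested, 5 fell and none rose, beside 1.83% and 3.72% of all genes tested, with a median of −0.07. CHAF1B and CHAF1A, subunits of the chaperone that deposits histones behind the fork, fell by 0.57 ± 0.08 and 0.38 ± 0.07. CHAF1B read 31.3, 35.5 and 36.9 FPKM early against 24.0, 22.9 and 22.0 FPKM, without overlap. The polymerase delta subunit POLD3 fell by 0.40 and the clamp loader subunit RFC3 by 0.35, together with RFC1. PCNA, the sliding clamp, was not called. Its 195, 262 and 272 FPKM early overlapped its 220.1, 211 and 197 FPKM in the middle window. Without 0 h, 12 fork genes were called.

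Regulators of the G1/S step had few calls, in both directions. Of 30 tested, 3 fell and 2 rose, beside 1.83% and 3.72% of all genes tested, with a median of −0.06. The middle window lay below the early one without overlap in 7 and above it in 3, beside 14.3% and 17.9% of all genes. E2F1, which activates S phase genes, read 19.9, 30.5 and 26.4 FPKM early and 15.3, 12.7 and 12.6 FPKM in the middle window, a fall of 0.86 ± 0.16 (adjusted p = 0.03, limma). E2F2 fell by 0.61 ± 0.10, and CCNE2 was the remaining one. The kinases that pair with D cyclins rose: CDK4 by 0.51 ± 0.06, from 148, 144 and 158 FPKM to 223, 204 and 213 FPKM, and CDK6 by 0.38. DTL directs CDT1 to destruction in S phase. It was among the 10 largest called falls of protein-coding genes whose mean was 10 FPKM or more. DTL read 58.2, 66.8 and 38.6 FPKM early and 27.9, 29.3 and 27.6 FPKM later (−0.89 ± 0.18).

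**Figure D1:**
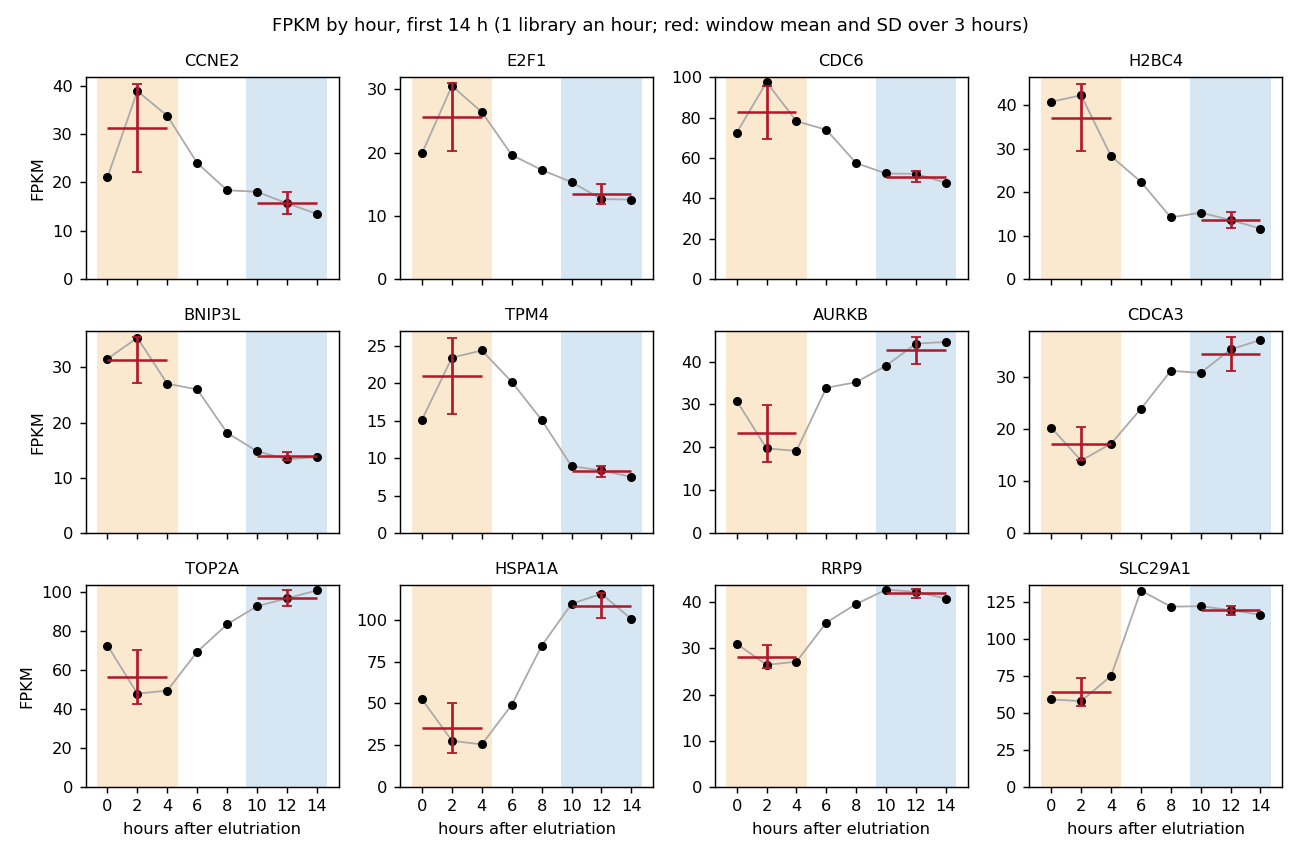
FPKM (y axis, from 0) of 12 genes against hours after elutriation (x axis), 1 point per library, with the early window shaded orange and the middle window blue. Red bars give the mean and SD over the 3 hours of a window; CCNE2, E2F1 and CDC6 peaked at 2 h, while AURKB, CDCA3, TOP2A and HSPA1A were higher at 0 h than at 2 h before they rose.

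Of 12 genes for deoxynucleotide supply tested, 2 rose and none fell, beside 3.72% and 1.83% of all genes tested. Their median was 0.11. SLC29A1, a nucleoside transporter, read 59.1, 57.9 and 74.98 FPKM early, 133 FPKM at 6 h and 122, 119.5 and 116 FPKM in the middle window, a rise of 0.90 ± 0.10 (adjusted p = 0.0158, limma). The nucleoside diphosphate kinase NME1 rose by 0.22 ± 0.04.

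Histone genes had the lowest median of the 23 lists. The replication-dependent histone list also holds the histone message binding protein SLBP. Of its 57 genes, 29 had an entry in the table and 28 were tested. Of these 28, 13 fell and none rose, beside 1.83% and 3.72% of all genes tested. In 27 the difference was below 0, and the median was −0.72. H2BC4 read 40.8, 42.3 and 28.3 FPKM early and 15.3, 13.6 and 11.6 FPKM in the middle window, a fall of 1.38 ± 0.16 (adjusted p = 0.0158, limma). H2BC21 read 36.0, 22.5 and 13.4 FPKM early, a spread of its own within the window, and fell to 8.20, 7.74 and 7.67 FPKM (−1.39 ± 0.29). H3C10 fell by 1.21 ± 0.19, H2BC8 by 1.20 ± 0.27 and H2AC6 by 1.01 ± 0.14. SLBP fell by 0.38, and H1-10, a linker histone outside that list, by 0.96 ± 0.15. The median of the list lay 0.82 above its level over the series at 0 h, 0.48 above at 2 h, 0.05 above at 4 h and 0.36 below at 10 h. Here and below, this level is each gene's mean over all 24 libraries. It includes those at 16 and 18 h, which the paper identifies as technically anomalous. Histone genes have near-identical copies whose reads may be shared out, so the value of a single copy is uncertain. Most of their messages lack a poly(A) tail, and the selection of RNA for the libraries is not given in the sources used here.

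**Figure D2:**
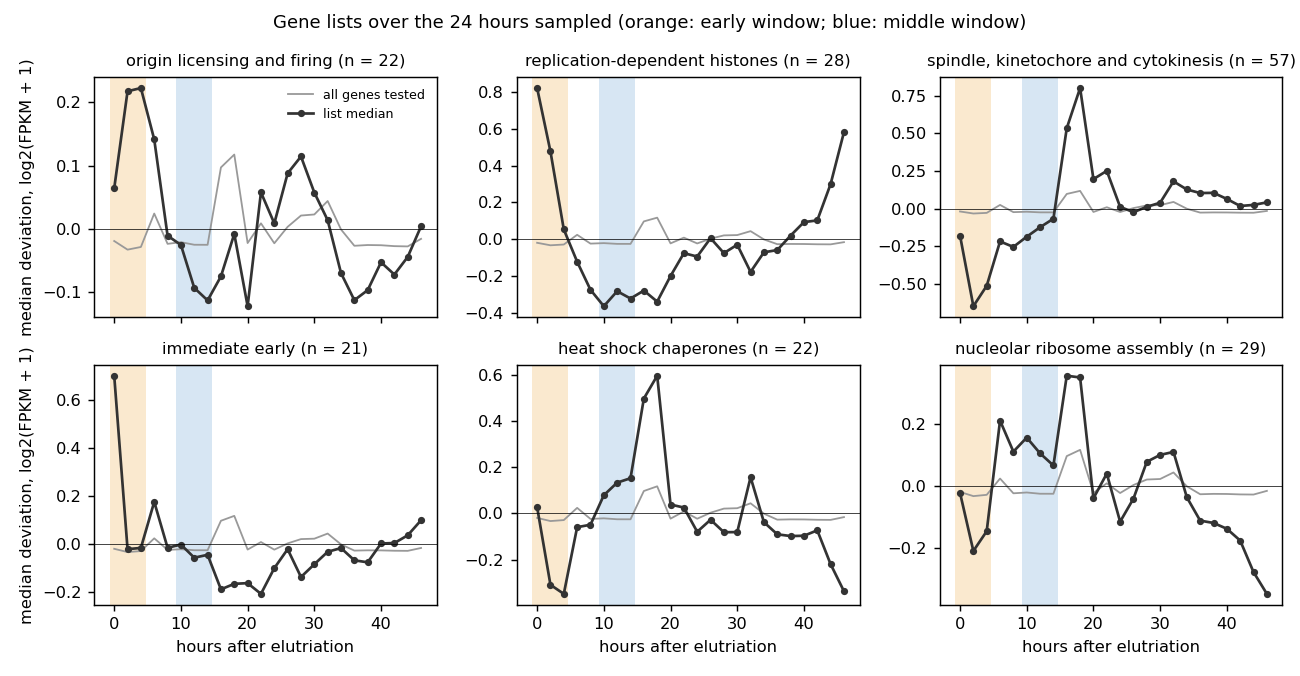
Median deviation of 6 gene lists from each gene's mean over the 24 libraries on log2(FPKM + 1) (y axis, own scale in each panel) against hours after elutriation (x axis), with the median of all genes tested in grey and the early and middle windows shaded orange and blue. The histone median lay at 0.82 at 0 h and at −0.36 at 10 h, and the spindle median at −0.65 at 2 h and at −0.07 at 14 h. The means include the 16 and 18 h libraries, which the paper identifies as anomalous and where the spindle median was 0.53 and 0.80.

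Of 57 spindle, kinetochore and cytokinesis genes tested, 11 rose and none fell, beside 3.72% and 1.83% of all genes tested. In 54 the difference was above 0, and the median was 0.28. CDCA3, which helps trigger the entry into mitosis, read 20.3, 13.9 and 17.2 FPKM early and 30.8, 35.3 and 37.1 FPKM in the middle window (0.98 ± 0.14, adjusted p = 0.0199, limma). TOP2A, the topoisomerase that untangles chromosomes, rose by 0.79 ± 0.15 from 72.4, 47.8 and 49.3 FPKM to 92.6, 96.6 and 101 FPKM. In both genes the 0 h library was the highest of the early window. INCENP of the chromosomal passenger complex rose by 0.77 ± 0.08 and the spindle protein CKAP2L by 0.68 ± 0.13.

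Of 32 regulators of mitotic entry and exit, 5 rose and 2 fell, beside 3.72% and 1.83% of all genes tested. Their median was 0.24. The passenger complex kinase AURKB read 30.9, 19.7 and 19.1 FPKM early against 39.0, 44.2 and 44.6 FPKM (0.88 ± 0.17, adjusted p = 0.0332, limma). CDK1, the mitotic kinase, read 89.5, 115 and 139 FPKM early and rose to 169, 170.2 and 174 FPKM (0.60 ± 0.14), and separase, ESPL1, rose by 0.65 ± 0.14. The securin PTTG1, which holds separase in check, went the other way. It read 165, 143 and 104 FPKM early and 71.0, 75.3 and 87.3 FPKM later (−0.79 ± 0.16), and WEE1, the kinase that restrains CDK1, fell by 0.43.

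The early values of several mitotic genes were highest at 0 h. Cyclin B1, CCNB1, read 168 FPKM at 0 h and then 85.7 and 65.0 FPKM, so that its early values overlapped the 124, 133 and 153 FPKM of the middle window and the gene was not called (0.47, 95% interval −0.22 to 1.16). CDC20, which drives the exit from mitosis, showed 111, 66.9 and 32.8 FPKM early and 41.9, 47.0 and 54.9 FPKM later. When 0 h was left out, 31 spindle genes and 20 mitotic regulators were called, in place of 11 and 7, whereas without 2, 10, 12 or 14 h no member of either list was (limma). The counts were 6 and 4 under upper-quartile scaling, 7 and 4 under quantile normalization, and 6 and 2 with hour within window as a covariate.

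Of 21 immediate early genes tested, 1 rose and 1 fell, near the 3.72% and 1.83% of all genes tested. In 18 the difference was below 0, and the median was −0.36. The median of the list lay 0.70 above its level over the series at 0 h and 0.02 below it at 2 and at 4 h. EGR1, a transcription factor gene induced within minutes of a stimulus, read 242 FPKM at 0 h and 8.93 and 8.97 FPKM at 2 and 4 h, against 6.57, 5.60 and 6.81 FPKM in the middle window. The AP-1 component JUN went from 63.0 to 9.44 and 7.34 FPKM and stood at 4.50, 4.31 and 3.96 FPKM later. In both genes 1 library stood far above the other 5, and neither was called (−1.98 ± 1.10 for EGR1 and −1.75 ± 0.67 for JUN). IER2, DUSP1 and ATF3 were likewise highest at 0 h, at 164, 33.3 and 37.2 FPKM, and at 2 h stood at 33.4, 6.47 and 10.6 FPKM. NAB2, a corepressor that EGR1 induces and that curbs it, followed at 2 h with 48.4 FPKM, after 9.51 FPKM at 0 h and before 13.2 FPKM at 4 h. The called pair were BTG2, an antiproliferative gene, which fell by 0.74 ± 0.14, and MYC, which rose by 0.58 ± 0.10 from 124, 97.0 and 129.9 FPKM to 173, 177 and 172 FPKM. NAB2 and the genes of this paragraph that were not called were selected after their values were seen.

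**Figure D3:**
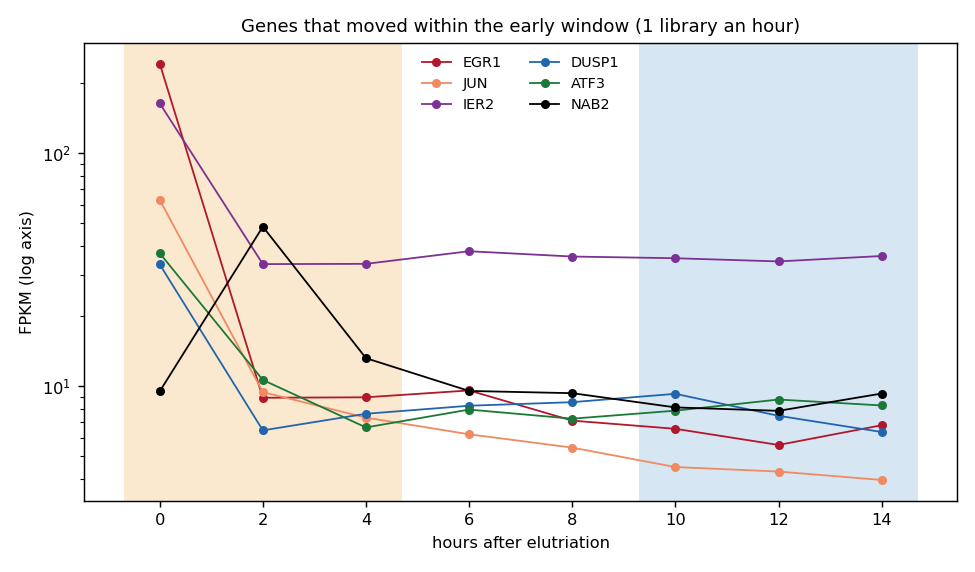
FPKM on a log axis (y axis) of 6 genes against hours after elutriation (x axis), 1 point per library, with the early window shaded orange and the middle window blue. EGR1, JUN, IER2, DUSP1 and ATF3 were highest at 0 h, and NAB2 was highest at 2 h, at 48.4 FPKM.

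Across the 7038 genes at 10 FPKM or more, 40 genes at 0 h were at least 2-fold above and 14 at least 2-fold below the other early hours. At 2 h these numbers were 3 and 11, at 4 h 5 and 22, and in the middle window between 2 and 4 at any hour. The middle window was thus the more even one, and 0 h had the most genes above its neighbours.

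Of 22 heat shock chaperones tested, 7 rose and none fell, beside 3.72% and 1.83% of all genes tested. All 22 had a difference above 0 and the median was 0.36. HSPA1A, an inducible HSP70, had the largest rise among called genes. It read 52.4, 27.6 and 25.4 FPKM early, 49.2 and 84.5 FPKM at 6 and 8 h, and 109.7, 116 and 101 FPKM in the middle window (1.67 ± 0.24, a 3.19-fold change on the log2(FPKM + 1) scale, adjusted p = 0.0215, limma). HSPA1B, a near-identical copy whose reads cannot be told from it with certainty, rose by 1.34 ± 0.20. Their partner DNAJB1 rose by 0.66 ± 0.11 and the constitutive HSPA8 by 0.54 ± 0.08, from 1403, 1162 and 1089 FPKM to 1739, 1788 and 1759 FPKM. The median of the list lay 0.31 and 0.35 below its level over the series at 2 and 4 h. That level includes the anomalous 16 and 18 h libraries, where the list stood 0.50 and 0.60 above it. Without 0 h 14 chaperones were called.

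Other stress lists had few calls, where 3.72% of all genes tested rose and 1.83% fell. Of 21 endoplasmic reticulum stress genes tested, the calcium binding chaperone CALR rose (0.29 ± 0.04), none fell and the median was 0.09. Of 28 integrated stress response genes, CBS, which starts cysteine synthesis (0.84 ± 0.15), and the amino acid transporter SLC7A5 (0.37 ± 0.08) rose, none fell and the median was 0.07; without 0 h 8 were called. In the antioxidant list the pentose phosphate enzyme PGD rose (0.23 ± 0.04), alone of 17, with a median of 0.05. Among 15 p53 targets, CCNG1 fell (−0.49 ± 0.08) and none rose, with a median of −0.07.

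Nucleolar genes for ribosome assembly and the ribosomal protein genes differed in their number of calls. Of 29 assembly genes tested, 7 rose and none fell, beside 3.72% and 1.83% of all genes tested, and the median was 0.26. In 19 the middle window lay above the early one without overlap, as it did in 17.9% of all genes tested. RRP9, which binds the U3 snoRNA, read 31.0, 26.5 and 27.1 FPKM early and 42.8, 42.3 and 40.8 FPKM later (0.56 ± 0.08, adjusted p = 0.0199, limma). MYBBP1A, RRP12 and RRP1B rose by 0.50, 0.44 and 0.35; RRP12 had its highest value of the series, 39.6 FPKM, at 6 h. Without 0 h 17 assembly genes were called, and under quantile normalization 4. None of 79 cytosolic ribosomal protein genes was called (limma), with a median of −0.02, although 2 were under upper-quartile scaling and 2 under quantile normalization; RPL21 differed the most, with 40.6 FPKM at 0 h and between 15.7 and 21.7 FPKM in the other 5 libraries. Of 15 mitochondrially encoded genes listed, 5 had an entry in the table, and none of these was called (median −0.06). The largest difference among them was −0.51 ± 0.26 in MT-ND4L, at 2.87 FPKM or less in all 6 libraries.

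Of 32 erythroid genes tested, 6 rose and none fell, beside 3.72% and 1.83% of all genes tested, with a median of 0.13. HBZ, the embryonic zeta globin, read 319, 339 and 394 FPKM early and 557, 515 and 493 FPKM in the middle window (0.57 ± 0.08, adjusted p = 0.0215, limma). HBA2 and HBA1, which encode the same alpha globin and share reads, rose by 0.44 and 0.31, and ANK1, the ankyrin of the red cell membrane skeleton, by 0.33. The erythroid factor GATA1 rose as well, by 0.25. LMO2, its partner in a DNA binding complex, had the largest difference of the list, with 51.9, 46.8 and 103 FPKM early against 139.6, 129 and 126 FPKM, but was not called (1.05 ± 0.26, adjusted p = 0.0578, limma).

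Of 15 hypoxia genes tested, 2 fell and none rose, beside 1.83% and 3.72% of all genes tested, with a median of −0.30. The early level was uneven: the median of the list lay 0.62, 0.21 and 0.01 above its level over the series at 0, 2 and 4 h. It lay 0.02 above at 10 h and 0.04 and 0.10 below at 12 and 14 h. BNIP3L, a mitophagy receptor, read 31.6, 35.4 and 27.0 FPKM early and 14.8, 13.3 and 13.7 FPKM later (−1.10 ± 0.11, adjusted p = 0.0125, limma), and its relative BNIP3 fell by 0.79 ± 0.15. Without 4 h 6 hypoxia genes were called. Of 19 glycolysis genes, 4 fell and 2 rose, beside the same shares of all genes, with a median of −0.13. The aldolase ALDOC fell by 0.73 ± 0.13, PGK1 by 0.47 ± 0.06 and LDHA by 0.40 ± 0.07, while the hexokinase HK1 rose by 0.25. LDHA was highest between the windows, at 1316 FPKM at 6 h, against 816 FPKM at 4 h and 712 FPKM at 8 h. That peak rests on the 6 h library, which stood apart in other values given below.

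The remaining lists held single calls. Of 30 genes of cholesterol synthesis and uptake, the desaturase SC5D fell (−0.39 ± 0.08) and none rose, with a median of −0.08. Of 15 circadian clock genes, the repressor CRY2 rose (0.36 ± 0.08), with a median of −0.01. VIM, the intermediate filament vimentin, fell (−0.34 ± 0.06), alone of the 3 fibroblast markers tested (median −0.24); it is expressed by many cultured cells. The lymphoid marker tested, CD3D, lay between 4.20 and 5.59 FPKM in the 6 libraries and was not called (−0.14).

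**Figure D4:**
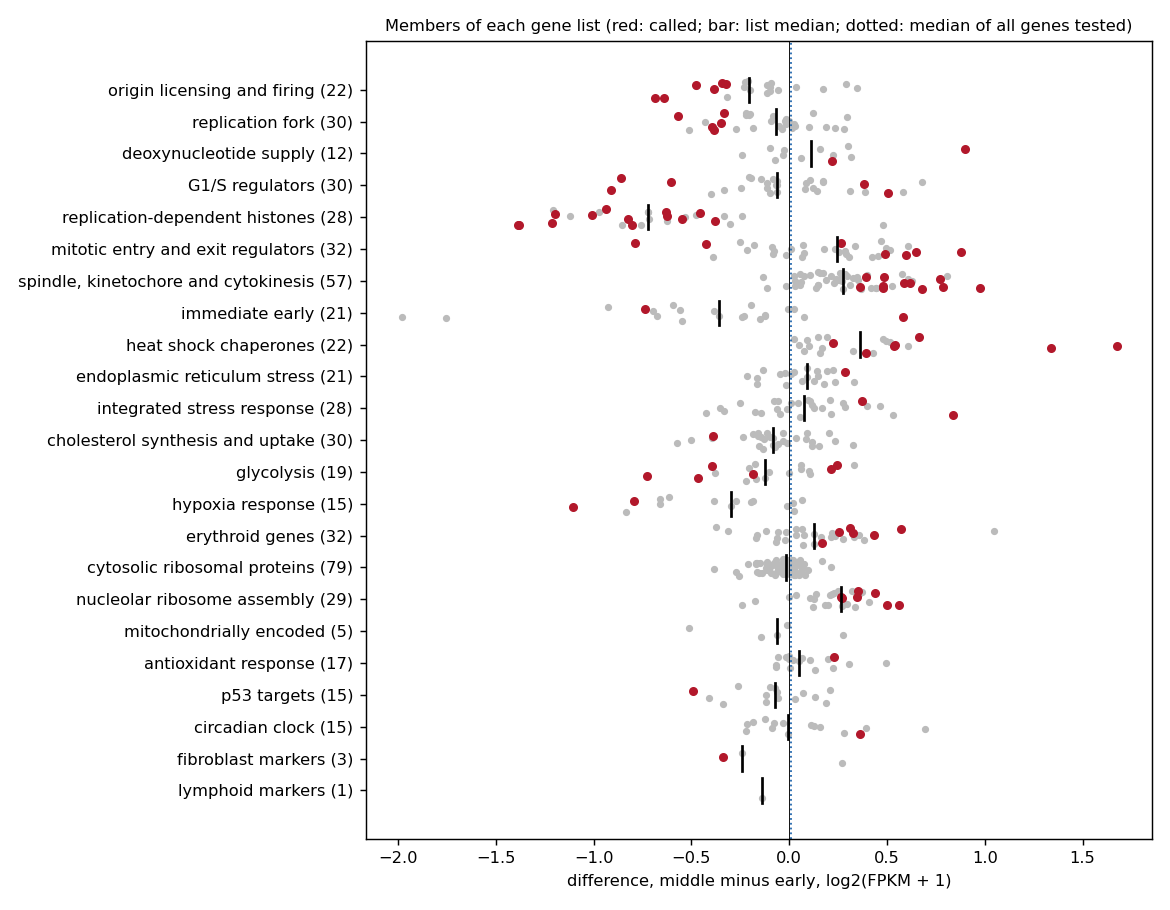
Difference between the middle and the early window on log2(FPKM + 1) (x axis) for each member of 23 gene lists (y axis, number tested in brackets), with called members in red, the list median as a black bar and the median of all 12081 genes as a dotted line. Histone genes lie to the left with a median of −0.72, and heat shock, spindle and nucleolar assembly genes to the right at 0.36, 0.28 and 0.26.

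Several of the largest called changes were in genes of none of these lists. TPM4, a tropomyosin that binds actin filaments, read 15.2, 23.4 and 24.4 FPKM in the early window and 8.92, 8.36 and 7.49 FPKM in the middle one, a fall of 1.22 ± 0.17 (adjusted p = 0.0215, limma). DHRS2, a dehydrogenase, fell by 1.12 ± 0.13, from 19.9, 21.8 and 18.7 FPKM to 10.6, 8.24 and 7.48 FPKM. TNFRSF8, which encodes the receptor CD30, rose by 1.32 ± 0.19 and ID1, an inhibitor of helix-loop-helix factors, by 1.27 ± 0.23, the latter from 26.3, 12.2 and 22.2 FPKM to 48.4, 47.6 and 47.5 FPKM. The extracellular matrix gene RELN rose by 0.99 ± 0.14, CPNE7, a calcium dependent membrane binding protein, by 0.95 ± 0.09 and the mucin MUC1 by 0.88 ± 0.18.

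Between the windows, the 6 h library stood apart. It had the highest FPKM sum (510972) and the most genes at 0 (35) of the 8 libraries from 0 to 14 h. The 5 mitochondrially encoded genes with values lay a median of 0.70 below their level over the series at 6 h. That level includes 16 and 18 h, where they stood 0.77 and 1.02 above it. At 6 h the genes that rose had covered a median of 85.6% of the distance between the window means and at 8 h 82.1%, and 185 of the 450 were past the middle mean at 6 h but 107 at 8 h, so no order in time is read from 6 h. The genes that fell had covered 55.2% at 6 h and 78.9% at 8 h. The 6 h and 8 h libraries took no part in the calls.

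The same clock hours a day later gave fewer calls. Of these libraries, 28 h differed in its FPKM sum, at 500802 against 464697 at 24 h and 475436 at 26 h. The sum ranged from 462948 to 477199 at 34, 36 and 38 h. When 24, 26 and 28 h were set against 34, 36 and 38 h, 61 of 12210 genes were called (limma), 49 higher (0.401%) and 12 lower (0.0983%). Without 24 h and without 26 h 0 genes were called (limma, 2181 and 1947 at an unadjusted p under 0.05, against 2206 with all 6 libraries), 71 were called without 28 h, and without 34, 36 or 38 h 1 gene was called in each fit. Of the genes called on the first day, 55.3% of those that rose and 70.1% of those that fell had the same sign on the second day, where 55.2% of all genes did, and 4 and 4 were called there again with that sign. Over 12029 genes the 2 sets of differences had a Pearson r of 0.167, across genes that are not independent replicates. CCNE2 fell again, from 28.5, 30.9 and 25.6 FPKM to 19.8, 19.3 and 18.97 FPKM (−0.52 ± 0.07, adjusted p = 0.04, limma), TOP2A rose again by 0.42 ± 0.04 and HSPA1A by 0.39 ± 0.05. MCM5 had a difference of −0.42 and CDC6 of −0.35, neither called.

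The change itself differed between the days in 274 of 12214 genes (limma, first-day minus second-day difference), 165 of them more positive on the first day (1.35%) and 109 more negative (0.892%). This split turned with the scaling, to 96 and 165 under upper-quartile scaling, 93 and 124 under quantile normalization and 116 and 134 in the cleaned table. The number was 636 without 0 h and 1325 without 4 h. It was 45 without 2 h, 38 without 10 h, 12 without 12 h and 49 without 14 h, and of the second day 135 without 24 h, 43 without 26 h, 139 without 28 h, 160 without 34 h, 13 without 36 h and 12 without 38 h. Histone genes were the largest group of the lists, with 8 of 28 more negative on the first day: H2BC4 had changed by −1.38 on the first day and by −0.08 on the second, when it read 15.8, 17.4 and 15.7 FPKM and then 14.2, 16.1 and 15.7 FPKM. Of the heat shock list 5 of 22, of the spindle list 4 of 57 and of the nucleolar list 3 of 29 were more positive on the first day, and 1 of 30 fork genes, RFC3, and 2 of 19 glycolysis genes were more negative. None of the licensing genes or mitotic regulators was called in either direction.

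**Figure D5:**
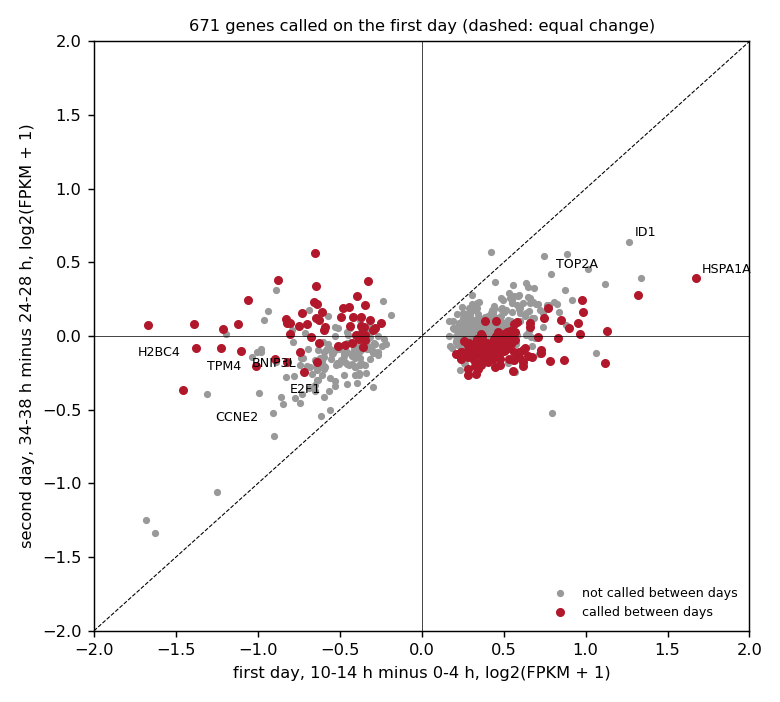
Difference between middle and early hours on the first day (x axis) against that on the second day (y axis), both on log2(FPKM + 1), for the 671 genes called on the first day, in red where the change differed between days. HSPA1A lies at 1.67 and 0.39 and H2BC4 at −1.38 and −0.08, while CCNE2, at −0.91 and −0.52, is nearer the dashed line of equal change.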

How the data were processed

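RNA-seq of 24 libraries of synchronized K562 cells, 1 for each hour sampled, was analysed. FPKM values were made by the authors, who aligned reads with STAR and quantified and normalized them with Cufflinks2 and Cuffnorm; the submitters' processing notes name GRCh37, and exact tool versions and the annotation are not given in the sources used here. The authors also deposited a cleaned version of these values, used here as a score, which served as an alternative only. Every gene deposited reached 1 FPKM in at least 12 hours. Low FPKM values did not fall on steps of whole reads (at most 28.6% of 301 values within 0.1 of a whole number at any hour, against 20% by chance), so depth is unknown and no count model was used.

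Libraries were assigned by labelled hour. Values were transformed to log2(FPKM + 1), and the 12081 of 12285 genes whose mean was 1 FPKM or more in the 6 libraries were fitted with limma 3.58.1 in R 4.3.3 (eBayes with a variance trend, Benjamini-Hochberg threshold of 0.05); the fit was tested on simulated data. Second-day and between-day contrasts used the same settings. Names came from a gene name table (12123 identifiers matched), and types and GC content from GENCODE 29 (12180 matched). Named genes were both markers, the 10 largest called rises and falls among protein-coding genes whose mean was 10 FPKM or more, up to 4 called members of each of 23 gene lists (the largest difference where none was called), and the 5 largest between-day differences in each direction among protein-coding genes at that level; others were chosen after their values were seen. The windows, markers and gene lists were chosen with earlier results of these data known, so counts over lists are descriptions. Alternatives were a pseudocount of 0.1, no filter, a filter at 10 FPKM, median centring, upper-quartile scaling, quantile normalization, removal of a GC trend, no variance trend, hour within window as a covariate, the cleaned table and each library left out in turn.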

Additional observations from a re-analysis of the deposited data

Results flagged for a closer look

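The change from the early to the middle hours differed between the first and the second day in 274 genes (limma interaction, adjusted p of 0.05 or less), and 26 of the genes selected by rule were among them. The rule itself took the 5 largest in each direction from these 274, among protein-coding genes at 10 FPKM or more. Most others were selected by their first-day difference, which enters the interaction, so the 26 are no separate result. Values below are the first-day minus the second-day difference on log2(FPKM + 1). The change was more negative on the first day in the histone genes H2BC21 (−1.47), H2BC4 (−1.30), H3C10 (−1.26) and H2AC6 (−0.81), in DHRS2 (−1.21), TPM4 (−1.14), BNIP3L (−1.004), the glycolysis genes ALDOC (−0.89) and PGK1 (−0.41), CD3D (−0.76), CCNG1 (−0.62) and RFC3 (−0.35). CD3D differed through the second day, when it read 5.78, 5.99 and 6.45 FPKM and then 9.06, 8.74 and 12.1 FPKM. The change was more positive on the first day in the chaperone genes HSPA1A (1.28), DNAJB1 (0.57) and HSPA8 (0.51), in TNFRSF8 (1.04), CPNE7 (0.86), POP1 (0.85), SLC6A9 (0.85), SLC29A1 (0.84), RELN (0.82), CDCA3 (0.73), CDK4 (0.60), RRP12 (0.59), INCENP (0.58) and RRP9 (0.54). POP1, a subunit of RNase P, read 7.75, 5.78 and 8.98 FPKM early and 12.8, 13.2 and 12.8 FPKM in the middle of the first day. SLC6A9, a glycine transporter, went from 6.98, 7.16 and 7.87 FPKM to 13.5, 13.1 and 14.9 FPKM. The interaction measures the difference against the spread among 12 libraries without replicates, and what moved with the day beside the hour was not tested.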

How the results depend on the processing

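On the first day 671 genes were called. Counts stayed within 1.5 times of this under a pseudocount of 0.1, no filter, a filter at 10 FPKM and median centring. They also did so under upper-quartile scaling, GC trend removal and the cleaned table. The genes were not always the same. Of the 971 calls in the cleaned table, 503 were among the 671. It was 432 of 500 with upper-quartile scaling, 509 of 550 after GC trend removal and 638 of 667 with median centring. There were 407 under quantile normalization, 340 with hour within window as a covariate and 18 without the variance trend, and between 0 and 1560 when a library was left out. On the second day 61 genes were called. There were 40 under a filter at 10 FPKM, 118 with median centring, 126 with upper-quartile scaling, 125 with quantile normalization, 146 after GC trend removal, 21 with the hour covariate, 0 in the cleaned table (limma, 2401 at an unadjusted p under 0.05) and between 0 and 71 with a library left out. Between days 274 genes were called, 118 without the variance trend and between 12 and 1325 with a library left out. Leaving out a library leaves 2 hours in a window; why some hours carry the calls was not tested. Each of the 70 genes selected by rule kept its sign in the alternatives run for it on the first day. There were 16 for 64 genes and 15 for the 6 removed by the filter at 10 FPKM. In the 66 called among them this could not turn out otherwise when a library was left out, as their windows did not overlap. Nor can filters, the variance trend or the hour covariate turn a sign. No paired analysis was possible because the labels give no replicate numbers and each hour is 1 library. Read depth is unknown, so the counting error of a single value cannot be given.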

Other observations

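Of 1684 tested genes annotated as other than protein-coding, 37 fell and 11 rose, which is 2.20% and 0.653%, against 1.76% and 4.23% of 10298 protein-coding genes, and their median difference was −0.09. Antisense genes had 12 falls and 3 rises among 435. All 12 of those that fell also had a negative difference on the second day, and in 10 of them the middle window of that day lay below the early one without overlap, as it did in 27.8% of all antisense genes tested and 14.1% of all genes tested. CCNY-AS1 read 3.05, 3.14 and 2.98 FPKM and then 1.29, 1.204 and 1.65 FPKM on the first day. Whether the reads were counted by strand is not given in the sources used here, so reads of an antisense gene and of its partner cannot be told apart, and low FPKM values carry an unknown counting error. CCNY-AS1 was chosen after its values were seen.

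Among longer intergenic RNAs, CCDC26, a myeloid leukaemia associated locus, rose from 29.2, 19.2 and 15.4 FPKM to 36.8, 40.5 and 41.9 FPKM (0.92 ± 0.20), and of 382 tested 3 rose (0.785%) and 8 fell (2.09%), beside 3.72% and 1.83% of all genes tested.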
